A study of Mus musculus with 19 samples.

Results

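Nodal, Gdf3, Inhbb, Tdgf1, Acvr2b, Lefty1, Lefty2, Smad7 and Skil, 9 genes of the Nodal and Activin signalling pathway, were followed through the passage of mouse embryonic stem cells to an epiblast-like state. They were taken by name, and the TPM of their transcripts, an abundance corrected for transcript length and library total, was summed per gene, out of 54119 genes in all. Of the 9, 8 reached a deposited TPM of 1 in 3 or more libraries and were tested among 14972 such genes. Inhbb did not and is described by its level only.

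The 19 libraries were made from total RNA depleted of ribosomal RNA, with a protocol that keeps the strand. Mouse embryonic stem cells (mESC) were held in 2i medium with N2B27, a GSK3 inhibitor, a MEK1/2 inhibitor and LIF, and epiblast-like cells (EpiLC) were obtained from them by 5 days with FGF5 and Activin A in the absence of LIF. Activin A was therefore an added ligand of this pathway in every EpiLC culture and in no mESC culture. Wild-type XX mESC (3 libraries) and XX EpiLC (3) came from the LF2 line, wild-type XY mESC (3) and XY EpiLC (3) from the E14 line, and Tet3-/- mESC (4, numbered 1 to 4) and Tet3-/- EpiLC (3, numbered 1, 3 and 4) from LF2, which is XX. With 1 line per sex, sex and cell line cannot be told apart. The labels number the Tet3-/- libraries as mutants and do not say whether the libraries of a group came from separate cultures, so the p-values measure only the spread between these libraries, which may be technical.

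Nodal and the Activins are secreted ligands of the TGF-beta family. They bind type II receptors such as Acvr2b together with type I receptors, Nodal and Gdf3 also needing the co-receptor encoded by Tdgf1 (Cripto), and the receptors phosphorylate Smad2 and Smad3, which enter the nucleus with Smad4 and work there with partners such as Foxh1. The signal switches on its own inhibitors, among them the secreted Lefty proteins and the intracellular Smad7 and Skil (SnoN), so that these genes are widely used as readouts of the pathway in the early embryo. In the mouse epiblast Nodal signalling keeps cells pluripotent before gastrulation and then patterns the primitive streak.

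A non-coding RNA of the signal recognition particle, Rn7s1, held 23.5% to 43.7% of the TPM of a library and its share differed between groups. Levels are therefore given as scaled TPM, the deposited TPM divided by a factor per library (0.594 to 1.70) that equalises the median gene, and fold changes are log2 values on the scale log2(scaled TPM + 1), which understates changes of low genes. Differences were tested with limma over all 14972 genes, and a gene was called at a Benjamini-Hochberg adjusted p under 0.05. The naive pluripotency markers summed to 433 to 522 scaled TPM in mESC and to 51.1 to 52.9 in XX, 6.39 to 7.37 in XY and 15.3 to 24.3 in Tet3-/- EpiLC, and the 6 formative markers to 12.9 to 35.0 in mESC and to 53.3 to 56.2, 206 to 209 and 69.6 to 121 in XX, XY and Tet3-/- EpiLC. Among the formative markers Otx2 averaged 23.6 in XX mESC and 11.7 in XX EpiLC, 20.9 and 19.1 in Tet3-/- cells, and 1.65 and 39.5 in XY cells. Tet3 itself averaged 0.933 ± 0.295 scaled TPM (SD, n = 3) in XX mESC and 0.668 ± 0.134 (n = 4) in Tet3-/- mESC, and 1.74 ± 0.287 (n = 3) in XX EpiLC and 1.15 ± 0.150 (n = 3) in Tet3-/- EpiLC. Neither difference was called (adjusted p = 0.440 and 0.115), the deleted part of the gene is not given in the labels, and the sum over the gene thus does not check the genotype label. XX mESC library 2 and Tet3-/- EpiLC library 3 stood furthest from their groups, with a mean correlation of 0.948 and 0.951 against 0.967 to 0.987 for the other libraries. Tet3-/- EpiLC library 3 held 94.0 scaled TPM of primitive streak and mesoderm markers (T at 70.8, Eomes at 13.0 and Mixl1 at 9.67), where libraries 1 and 4 held 4.65 and 5.41. Several results that rest on these libraries are given with and without them.

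**Figure D1:**
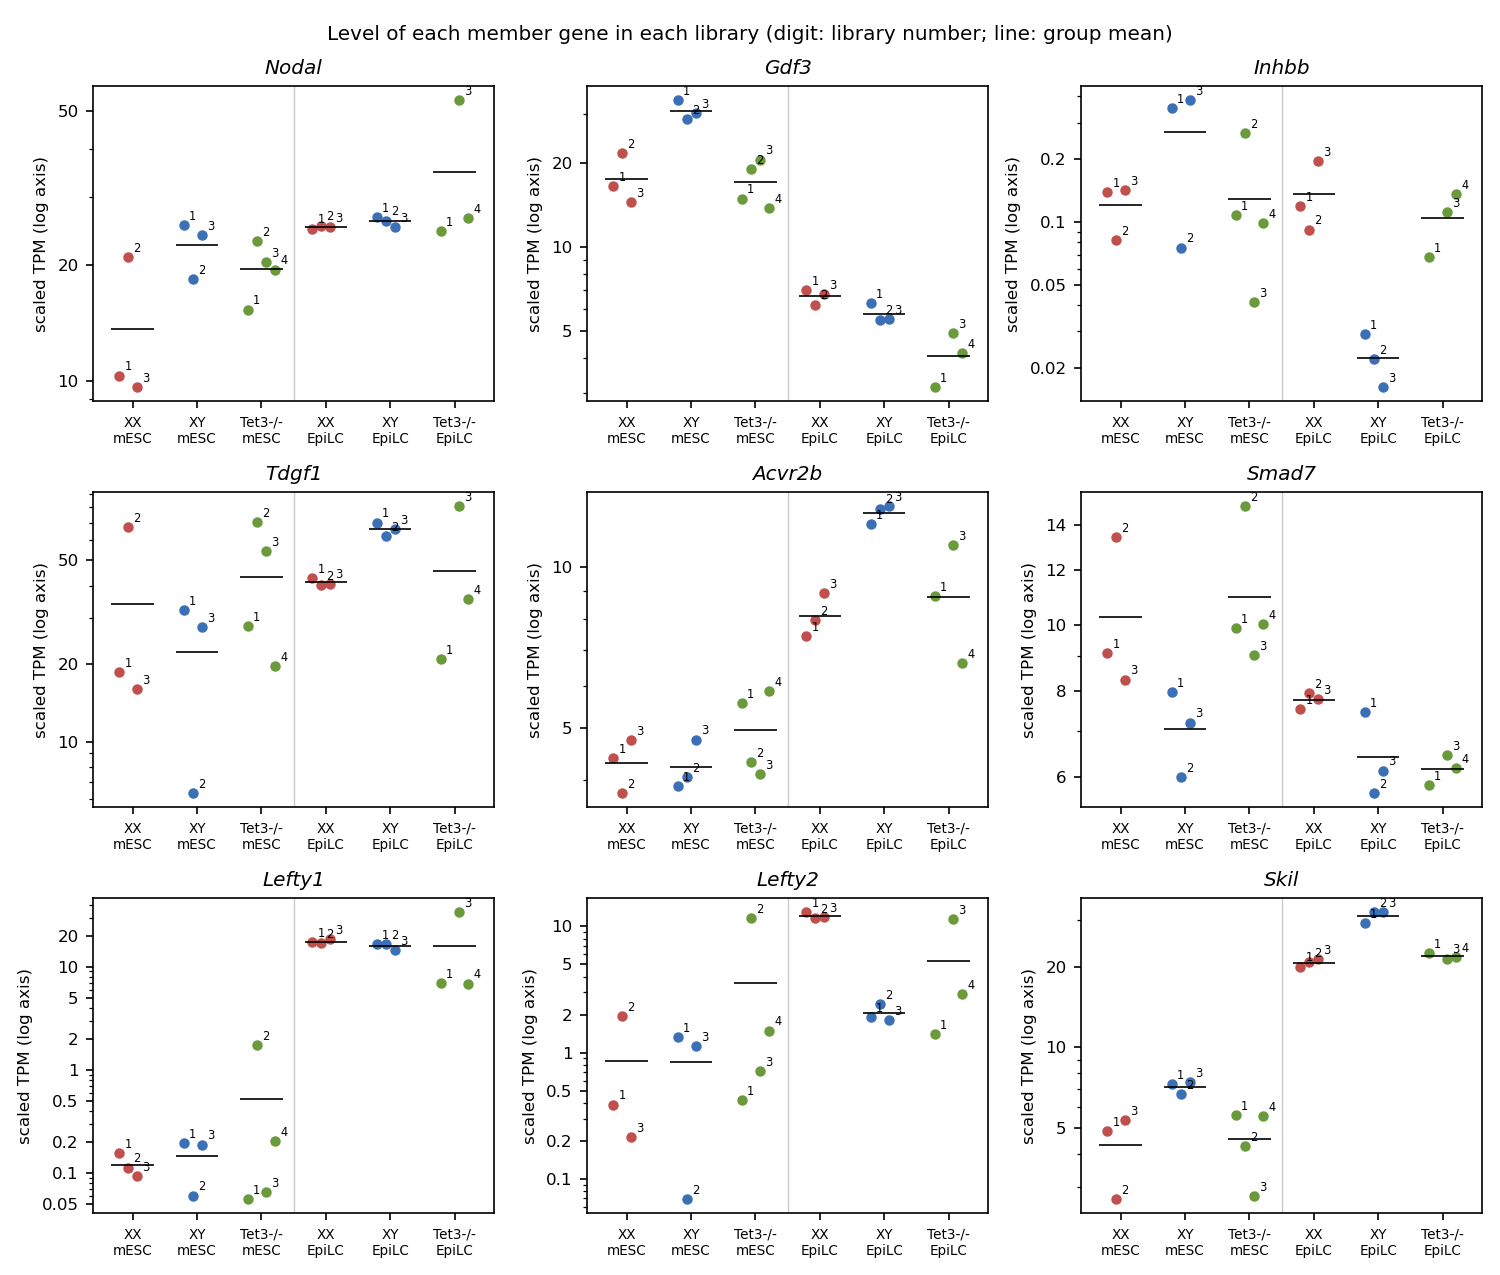
Scaled TPM (log axis) of the 9 genes in each of the 19 libraries, by group, with the library number beside each point and the group mean as a line. Lefty1 and Skil separate mESC from EpiLC in every genotype, Gdf3 does so in the other direction, and Tet3-/- EpiLC library 3 lies above its group for Nodal, Tdgf1, Lefty1 and Lefty2.

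From mESC to EpiLC, Lefty1, Skil and Acvr2b rose and Gdf3 fell in all 3 genotypes. Nodal rose in XX and Tet3-/- cells, Lefty2 rose in XX cells, Tdgf1 rose in XY cells and Smad7 fell in Tet3-/- cells. In XX cells 5 of the 8 tested genes rose and 1 fell, against 24.5% of all genes called higher, 25.9% lower and 50.4% in either direction, and the groups did not overlap for 7 of the 8, against 61.2% of all genes. In XY cells 4 rose and 1 fell, against 26.4% of all genes called higher, 25.0% lower and 51.4% in either direction, and 6 of the 8 did not overlap, against 64.7%. In Tet3-/- cells 4 rose and 2 fell, against 25.2% called higher, 27.2% lower and 52.4% in either direction, and 6 of the 8 did not overlap, against 50.3%. The median log2 fold change of the 8 genes was 0.85, 1.09 and 0.71 in XX, XY and Tet3-/- cells, where the median over all tested genes was -0.02, -0.0045 and 0.

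**Figure D2:**
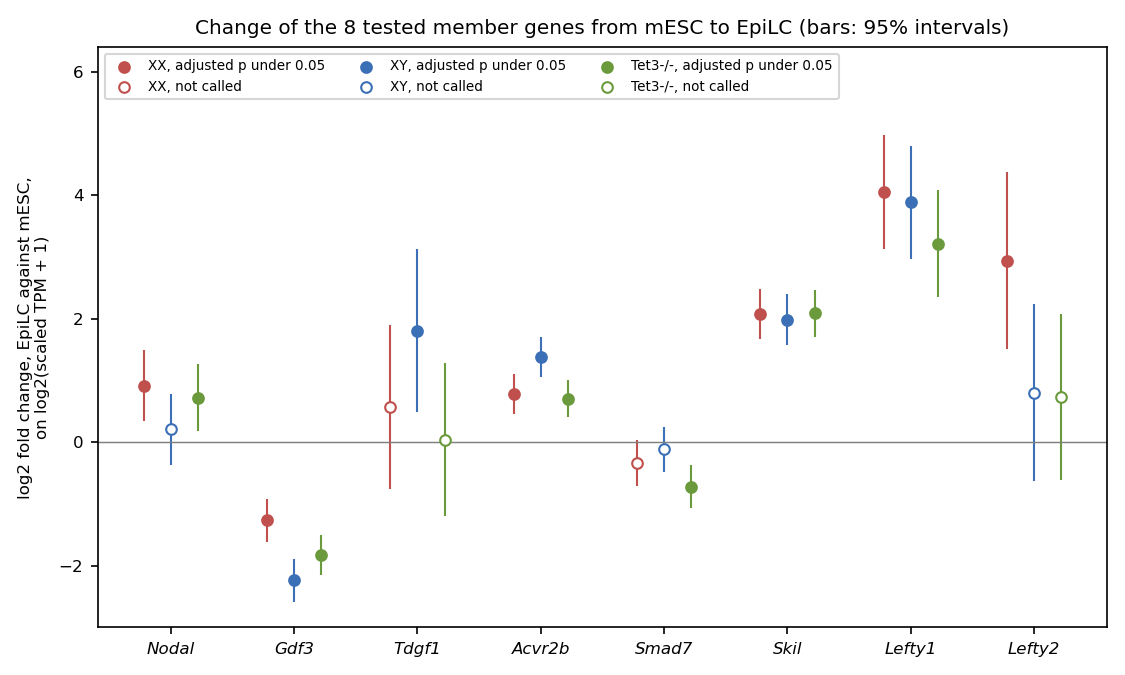
Log2 fold change of EpiLC against mESC, on log2(scaled TPM + 1), for the 8 tested genes in XX, XY and Tet3-/- cells, with 95% intervals from limma, filled points being called at an adjusted p under 0.05. Lefty1 has the highest points in each genotype (3.22 to 4.05), Skil lies near 2 in all 3 and the Gdf3 points (-2.24 to -1.26) are all below 0.

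Among the ligands, Nodal (chr10:61417972-61425338, plus strand, GRCm38) was already transcribed in mESC. Its level was 10.3, 20.9 and 9.66 scaled TPM in the 3 XX mESC libraries and 24.8, 25.3 and 25.1 in XX EpiLC. The XX EpiLC libraries were nearly equal and lay above every XX mESC library, and the rise was 0.91 ± 0.27 (log2, SE, adjusted p = 0.0102). Without XX mESC library 3 it was 0.72 and no longer called (adjusted p = 0.0550), and on deposited TPM it was 1.101 (adjusted p = 0.0803). Without XX mESC library 2 it was 1.24 and called (adjusted p = 0.000583). In XY cells Nodal stood at 25.4, 18.4 and 23.9 in mESC and at 26.6, 26.1 and 25.1 in EpiLC, ranges that overlapped, with a difference of 0.21 ± 0.27 (adjusted p = 0.558). Tet3-/- mESC held 15.3, 23.1, 20.4 and 19.4, and Tet3-/- EpiLC 24.4, 53.4 and 26.4 in libraries 1, 3 and 4. That rise of 0.72 ± 0.25 (adjusted p = 0.0247) was 0.38 without EpiLC library 3 and then not called (adjusted p = 0.181). Nor was it called without mESC library 1 (0.61, adjusted p = 0.0723) or on deposited TPM (0.56, adjusted p = 0.356). The rise of XX cells and that of XY cells differed by 0.71 ± 0.38, which was not called (adjusted p = 0.206). Without XX mESC library 2 that difference was 1.04 and was called (adjusted p = 0.0258), and on deposited TPM it was 0.24 (adjusted p = 0.832). Nodal has 1 annotated transcript, so its sum rests on that transcript alone.

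Gdf3 (chr6:122605403-122610087, minus strand), a Nodal-like ligand that also uses Tdgf1, fell in each genotype. Its levels were 16.5, 21.8 and 14.5 scaled TPM in XX mESC, 33.7, 28.8 and 30.4 in XY mESC, and 14.9, 19.01, 20.6 and 13.8 in Tet3-/- mESC. In EpiLC they were 7.00, 6.22 and 6.76 in XX, 6.27, 5.48 and 5.52 in XY, and 3.14, 4.92 and 4.16 in Tet3-/- libraries 1, 3 and 4. Every EpiLC library lay below every mESC library. The log2 change was -1.26 ± 0.16 in XX (adjusted p = 8.1e-06), -2.24 ± 0.16 in XY (adjusted p = 9.2e-09) and -1.83 ± 0.15 in Tet3-/- cells (adjusted p = 4.2e-08). The fall was smaller in XX than in XY cells by 0.98 ± 0.23 (adjusted p = 0.00571), and the XY libraries started from a higher level. On deposited TPM that difference was 0.59 and not called (adjusted p = 0.413). Inhbb (chr1:119415465-119422248, minus strand), which encodes a subunit shared by Activin B and Inhibin B, stayed at or below 0.383 scaled TPM in all 19 libraries, its highest value in XY mESC library 3. The order of its group means, from 0.270 in XY mESC to 0.0224 in XY EpiLC, is set at levels where only XY EpiLC was clear of its neighbour.

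Tdgf1 (chr9:110939603-110946158, minus strand), the co-receptor, varied widely between libraries of a group. In XX mESC it stood at 18.6, 67.4 and 16.0 scaled TPM, in XY mESC at 32.2, 6.34 and 27.7, and in Tet3-/- mESC at 27.9, 70.3, 54.3 and 19.5. The EpiLC values were 42.6, 40.1 and 40.7 in XX, 69.9, 62.1 and 65.9 in XY, and 20.8, 80.8 and 35.3 in Tet3-/- libraries 1, 3 and 4. Wild-type EpiLC were thus tight around their means while the mESC groups and Tet3-/- EpiLC spread several-fold. The rise was called in XY cells at 1.81 ± 0.63 (adjusted p = 0.0236). It was 1.11 without XY mESC library 2 (adjusted p = 0.146), and it was also not called without XY EpiLC library 1 (1.78, adjusted p = 0.0546) or library 3 (1.82, adjusted p = 0.0522). In XX cells the difference was 0.57 ± 0.63 (adjusted p = 0.476), 1.20 without mESC library 2 (adjusted p = 0.120) and 0.20 without mESC library 3 (adjusted p = 0.841). It was 0.04 ± 0.58 in Tet3-/- cells (adjusted p = 0.965).

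Among the LF2-derived mESC the 3 libraries high in Tdgf1 had low sums of primitive and visceral endoderm markers, mainly through Gata6 and Dab2. The 8 markers summed to 1.58 scaled TPM in XX library 2 and to 1.16 and 1.18 in Tet3-/- libraries 2 and 3. In XX libraries 1 and 3 they summed to 9.34 and 10.5, and in Tet3-/- libraries 1 and 4 to 5.38 and 4.77. In XX libraries 1, 2 and 3 Gata6 was at 3.61, 0.438 and 3.84, and Dab2 at 4.54, 0.496 and 5.61. In Tet3-/- libraries 1 to 4 Gata6 was at 1.29, 0.225, 0.371 and 1.27, and Dab2 at 2.27, 0.399, 0.445 and 2.19. Not every marker went this way, as Sox7 was highest in XX library 2 (0.152) and Sox17 in Tet3-/- library 3 (0.0973) of their groups. In XY mESC the sums were 0.627, 1.05 and 0.717 beside Tdgf1 at 32.2, 6.34 and 27.7, so the lowest Tdgf1 value came with a low sum as well. Sox7 and Foxa2 averaged under 0.1 in the 3 mESC groups. The part of other cell types in the Tdgf1 values was not tested, and in bulk RNA fewer expressing cells and less RNA per cell cannot be told apart.

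The reading of Tdgf1 also depends on its processed pseudogene Tdgf1-ps1 on chromosome 16. Of the 31-base words of Tdgf1-ps1, 68.3% occur in the transcript Tdgf1-201, and 17.35% of those of Tdgf1-201 occur in Tdgf1-ps1. Tdgf1-ps1 took from 13.1% to 22.8% of the sum of both in each library, and its level followed that of Tdgf1 over the 19 libraries (Pearson r 0.99, a description of the same libraries). How reads were split between them by the authors' quantification cannot be checked in a TPM table. The sum of both gave the same order of libraries at the top, with Tet3-/- EpiLC library 3 at 104.2 and Tet3-/- mESC library 2 at 88.9 scaled TPM.

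The 250 bases upstream of the annotated starts of Nodal and Tdgf1 are shown, from RefSeq on GRCm38.p6, and a shared control of these genes was not tested. The windows are chr10:61417722-61417971 on the plus strand and chr9:110946159-110946408 on the minus strand, both outside exons, printed 5′ to 3′ with any match to a searched motif in capitals:
Nodal: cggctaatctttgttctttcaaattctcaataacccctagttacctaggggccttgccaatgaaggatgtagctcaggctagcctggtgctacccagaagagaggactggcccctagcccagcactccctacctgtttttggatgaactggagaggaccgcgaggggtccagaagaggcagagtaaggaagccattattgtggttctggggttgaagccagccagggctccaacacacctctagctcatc
Tdgf1: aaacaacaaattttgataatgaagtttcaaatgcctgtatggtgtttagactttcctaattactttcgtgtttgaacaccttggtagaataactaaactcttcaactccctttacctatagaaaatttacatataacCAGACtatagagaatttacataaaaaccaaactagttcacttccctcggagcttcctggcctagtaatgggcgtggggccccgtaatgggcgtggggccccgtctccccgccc
The motifs searched on both strands were AATCCACA for FOXH1, the palindrome GTCTAGAC for SMAD proteins and the short SMAD box CAGAC, whose letters are contained in neither of the others. Neither window held a FOXH1 or palindrome match, letters found in 0.718% and 0.167% of 32851 promoter windows of the same length. The Tdgf1 window held 1 CAGAC, as did 42.2% of all windows at least once. Sequence outside these windows, introns and distant enhancers included, was not searched. The promoter table matched 4 of the 9 genes.

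Acvr2b (chr9:119402118-119434995, plus strand), a type II receptor for Activins and Nodal, rose in each genotype. It stood at 4.39, 3.79 and 4.75 scaled TPM in XX mESC, 3.89, 4.05 and 4.76 in XY mESC, and 5.57, 4.33, 4.11 and 5.87 in Tet3-/- mESC. In EpiLC it was 7.43, 7.96 and 8.93 in XX, 12.0, 12.8 and 13.0 in XY, and 8.81, 10.95 and 6.604 in Tet3-/- cells. The 3 mESC groups overlapped, while XY EpiLC lay above every other library. The rise was 0.78 ± 0.15 in XX (adjusted p = 0.000429), 1.38 ± 0.15 in XY (adjusted p = 1.1e-06) and 0.70 ± 0.14 in Tet3-/- cells (adjusted p = 0.000530). The last was not called on deposited TPM (0.56, adjusted p = 0.166). XX and XY rises differed by -0.60 ± 0.21, just short of the threshold (adjusted p = 0.0522). It was called without XX mESC library 2 (-0.67, adjusted p = 0.0322) or XY mESC library 3 (-0.67, adjusted p = 0.0491). The transcript Acvr2b-205 held on average 65.1% to 81.0% of the gene's sum in the 6 groups.

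Lefty1 and Lefty2 encode secreted proteins that block Nodal and its co-receptor, and Lefty2 is the partner best known from the left side of the embryo and the nascent mesoderm. The genes lie 35919 bases apart on the plus strand of chromosome 1, Lefty2 at chr1:180893108-180899103 and Lefty1 at chr1:180935022-180938400 (GRCm38). Their coding sequences have the same length of 1104 bases and are identical at 91.8% of positions (1014 bases), so the sequences decide how far a short read can tell them apart. The 60 bases of coding sequence in which they differ most, coding positions 34 to 93 in exon 1 (chr1:180935143-180935202 for Lefty1, chr1:180893217-180893276 for Lefty2), are shown with the 18 differing bases in capitals:
Lefty1: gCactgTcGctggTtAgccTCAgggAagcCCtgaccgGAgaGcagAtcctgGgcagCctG
Lefty2: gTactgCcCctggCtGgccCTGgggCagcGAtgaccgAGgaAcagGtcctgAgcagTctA
Over the whole transcripts, 25.0% of the 31-base words of Lefty1-201 and 16.3% of those of Lefty2-201 occur in the other. The values below rest on how the authors' quantification divided such reads.

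Lefty1 changed most of the 9 genes. In mESC it was at 0.155, 0.113 and 0.0932 scaled TPM in XX, 0.195, 0.0606 and 0.189 in XY, and 0.0562, 1.74, 0.0658 and 0.206 in Tet3-/- libraries, so library 2 of the last group stood alone. In EpiLC it reached 17.4, 16.9 and 18.4 in XX, 16.7, 16.6 and 14.6 in XY, and 6.90, 33.7 and 6.86 in Tet3-/- libraries 1, 3 and 4. The wild-type groups were tight, and the Tet3-/- values lay on both sides of them. The rise was 4.05 ± 0.43 in XX (adjusted p = 1.0e-06), 3.88 ± 0.43 in XY (adjusted p = 1.4e-06) and 3.22 ± 0.41 in Tet3-/- cells (adjusted p = 5.1e-06), and it was 2.49 in Tet3-/- cells without EpiLC library 3 (adjusted p = 1.6e-06). Lefty1 passed the filter on low values through its EpiLC libraries and Tet3-/- mESC library 2.

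Lefty2 was called higher in XX than in XY EpiLC, and Tet3-/- EpiLC overlapped XY EpiLC. XX EpiLC held 12.9, 11.6 and 11.9 scaled TPM, XY EpiLC 1.91, 2.43 and 1.80, and Tet3-/- EpiLC 1.40, 11.5 and 2.91. XX EpiLC lay above both other groups, although Tet3-/- library 3 came close to the lowest XX library. In mESC the levels were 0.387, 1.95 and 0.214 in XX, 1.33, 0.0692 and 1.12 in XY, and 0.421, 11.6, 0.712 and 1.49 in Tet3-/- cells, where library 2 again stood apart. The rise was called in XX cells at 2.94 ± 0.68 (adjusted p = 0.00177). It was 0.80 ± 0.68 in XY cells (adjusted p = 0.345), in which every EpiLC library was above every mESC library, and 0.73 ± 0.63 in Tet3-/- cells (adjusted p = 0.359). In Tet3-/- cells it was 1.42 and called without mESC library 2 (adjusted p = 0.0227) and 0.05 without EpiLC library 3 (adjusted p = 0.958). With the mutant number as a block, which leaves mutant 2 without a partner, it was 1.42 and called (adjusted p = 0.0263). The difference of the XX rise from the XY rise, 2.14 ± 0.96 (adjusted p = 0.121), and that of the Tet3-/- rise from the XX rise, -2.21 ± 0.93 (adjusted p = 0.370), were not called.

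The share of Lefty2 in the pair was taken per library. The EpiLC groups were too small for the test used to call any difference in it. Lefty2 made up 69.6% to 94.5% of the Lefty1 and Lefty2 sum in XX mESC, 53.3% to 87.2% in XY mESC and 86.9% to 91.5% in Tet3-/- mESC, at sums of 0.130 to 2.06 scaled TPM except for 13.3 in Tet3-/- library 2. In EpiLC it made up 42.6%, 40.7% and 39.2% in XX, 10.3%, 12.8% and 11.0% in XY, and 16.9%, 25.4% and 29.8% in Tet3-/- libraries 1, 3 and 4. The share is taken within a library, so the scaling does not touch it, and the 3 EpiLC groups did not overlap. Tet3-/- EpiLC library 3, with the largest sum of all (45.2 scaled TPM), had a share between those of libraries 1 and 4. A two-sided exact permutation test gave p = 0.1 for each of the 3 pairs of EpiLC groups, adjusted p = 0.1. That is the smallest value that 3 against 3 libraries allow, so the test could not decide whether the shares differ. The share was taken up after the levels had been seen.

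**Figure D3:**
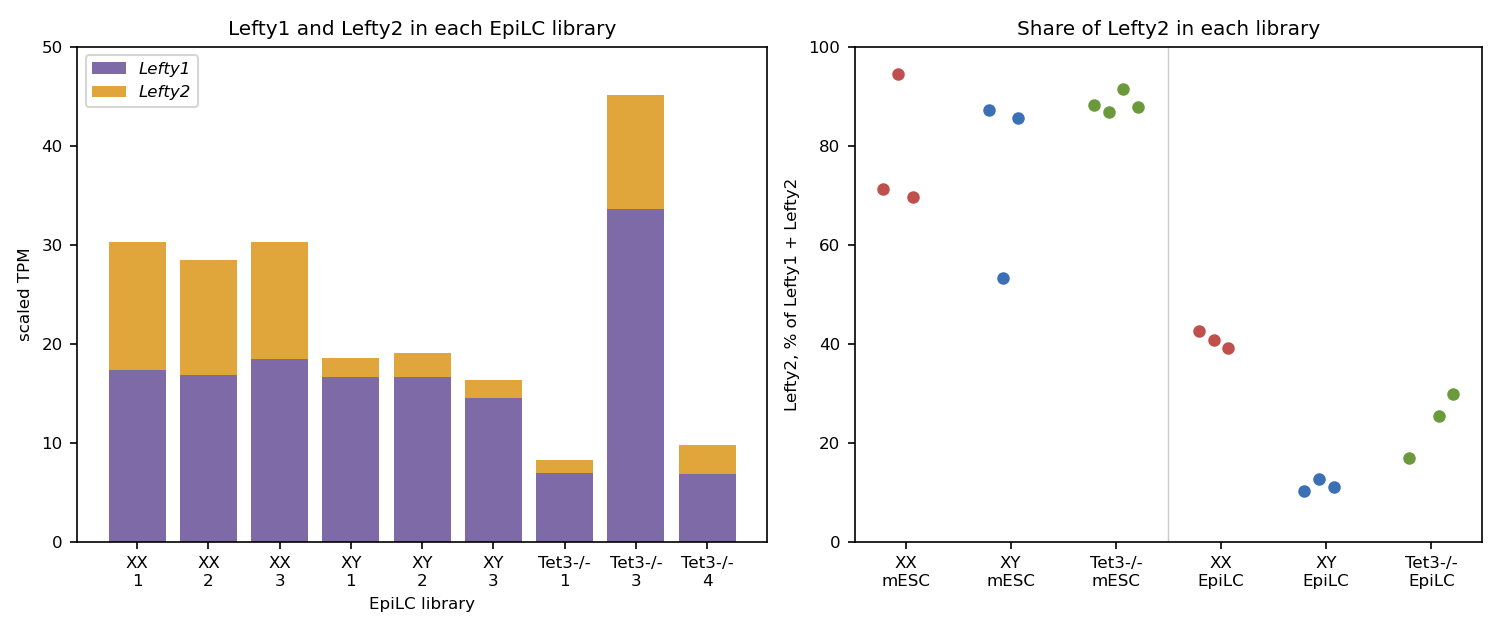
Left, scaled TPM of Lefty1 and Lefty2 stacked for each of the 9 EpiLC libraries, and right, Lefty2 as a percentage of the sum of both in each of the 19 libraries by group. Lefty2 exceeds 50% in every mESC library and lies at 39.2% to 42.6% in XX, 10.3% to 12.8% in XY and 16.9% to 29.8% in Tet3-/- EpiLC.

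Of the intracellular inhibitors, Skil rose about equally in the 3 genotypes. Skil (chr3:31095058-31122577, plus strand) encodes SnoN, a co-repressor that binds Smad proteins. It stood at 4.84, 2.70 and 5.34 scaled TPM in XX mESC, 7.26, 6.67 and 7.39 in XY mESC, and 5.56, 4.27, 2.77 and 5.54 in Tet3-/- mESC. In EpiLC it was 20.1, 20.9 and 21.4 in XX, 29.2, 32.1 and 32.02 in XY, and 22.6, 21.5 and 21.8 in Tet3-/- cells. All EpiLC libraries lay above all mESC libraries, and Tet3-/- EpiLC library 3, high for Nodal and the Lefty genes, was the lowest of its group here. The rise was 2.08 ± 0.19 in XX (adjusted p = 1.9e-07), 1.99 ± 0.19 in XY (adjusted p = 2.8e-07) and 2.09 ± 0.18 in Tet3-/- cells (adjusted p = 6.4e-08). Without XX mESC library 2 the XX rise was 1.84 (adjusted p = 3.5e-07). The XX and XY rises differed by 0.09, with a 95% interval from -0.49 to 0.67, and the Tet3-/- and XX rises by 0.01, from -0.55 to 0.57. On average 52.5% to 60% of the sum came from the transcript Skil-204 and 31.8% to 40.9% from Skil-201 in the 6 groups, both protein-coding.

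Smad7, which blocks the receptors and recruits ubiquitin ligases to them, was not called higher in any genotype. It stood at 9.08, 13.4 and 8.31 scaled TPM in XX mESC and 7.53, 7.95 and 7.79 in XX EpiLC, at 7.96, 5.99 and 7.19 in XY mESC and 7.45, 5.68 and 6.12 in XY EpiLC. In Tet3-/- cells it was at 9.90, 14.9, 9.03 and 10.0 in mESC and at 5.83, 6.44 and 6.17 in EpiLC, where the groups were well apart. The fall was called in Tet3-/- cells (-0.72 ± 0.16, adjusted p = 0.00133) and not in XX (-0.34 ± 0.17, adjusted p = 0.118) or XY cells (-0.12 ± 0.17, adjusted p = 0.601). Without XX mESC library 2 the XX value was -0.15 (adjusted p = 0.471). The Tet3-/- fall was not shown to differ from that in XX cells, the difference being -0.38 ± 0.24 (adjusted p = 0.633). In mESC every XX library lay above every XY library, with a difference of 0.47 ± 0.17 (adjusted p = 0.0510) that was called without XX mESC library 3 (0.59, adjusted p = 0.0305). Without XX mESC library 2, the highest of its group, it was 0.28 (adjusted p = 0.197), and on deposited TPM 0.22 (adjusted p = 0.688).

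Loss of Tet3 was compared with wild type within the LF2 line. Tet3 encodes a dioxygenase that oxidises 5-methylcytosine. In mESC limma called 0 of the 8 genes, with 1.77% of all genes called higher, 1.41% lower and 3.18% in either direction. The groups overlapped for each of the 8, where 12.4% of all genes did not overlap. Nodal alone had an unadjusted p under 0.05, with a log2 difference of 0.56 ± 0.25 (adjusted p = 0.316), from 13.6 ± 6.32 scaled TPM (SD, n = 3) in XX to 19.5 ± 3.21 (n = 4) in Tet3-/- mESC. It was called when XX mESC library 2 was left out (0.89, adjusted p = 0.0243), the XX mean then being 9.99. The 2 remaining XX libraries lay below all 4 Tet3-/- libraries.

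In EpiLC 1 of the 8 genes was called between Tet3-/- and XX cells, against 2.50% of all genes called higher, 2.95% lower and 5.45% in either direction, and 4 of the 8 did not overlap, against 29.0% of all genes. The called gene was Gdf3, lower in Tet3-/- EpiLC at 4.07 ± 0.892 than in XX EpiLC at 6.66 ± 0.403 scaled TPM (SD, n = 3 each), with no overlap and a log2 difference of -0.61 ± 0.16 (adjusted p = 0.0395). The call was lost in several alternatives, among them deposited TPM (-0.67, adjusted p = 0.518) and the omission of any library of either group other than Tet3-/- library 3. Lefty2 averaged 5.27 ± 5.44 against 12.1 ± 0.691, a log2 difference of -1.42 ± 0.68 that was not called (adjusted p = 0.266), although all 3 Tet3-/- libraries lay below the XX libraries. Lefty1 differed by -0.52 ± 0.43 (adjusted p = 0.577) and, without Tet3-/- EpiLC library 3, by -1.24, which was called (adjusted p = 0.0202). That library held 33.7 scaled TPM of Lefty1 beside 70.8 of T, and the remaining pair 6.90 and 6.86 of Lefty1 beside 1.37 and 1.29 of T. The part of streak-like cells in its values was not tested. The other log2 differences were 0.37 for Nodal, 0.08 for Acvr2b, -0.07 for Tdgf1, -0.29 for Smad7 and 0.08 for Skil, none of them called. That of Nodal was 0.016 without Tet3-/- library 3 (adjusted p = 0.997). That of Acvr2b was -0.08 without Tet3-/- library 3 and -0.0072 on deposited TPM, that of Skil was -0.03 on deposited TPM, and that of Tdgf1 was 0.37 without Tet3-/- library 1, so no direction is given for these genes.

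The change from mESC to EpiLC differed between Tet3-/- and XX cells for 0 of the 8 genes in limma, where 0.247% of all genes were called higher, 0.414% lower and 0.661% in either direction. Gdf3 (-0.57 ± 0.22, adjusted p = 0.333) and Lefty2 had an unadjusted p under 0.05. With both XX mESC library 2 and Tet3-/- EpiLC library 3 left out, an alternative chosen after the data had been seen, 4 genes were called. These were Nodal (-0.87, adjusted p = 0.0200), Gdf3 (-0.84, adjusted p = 0.0293), Lefty1 (-1.54, adjusted p = 0.0377) and Lefty2 (-3.27, adjusted p = 0.0489), each changing less upwards or more downwards in Tet3-/- cells. The 0.661% of all genes belongs to the fit of all libraries, and the share with both left out is not given here. Leaving out 1 library at a time gave 43 to 356 calls among all genes in this difference, against 99 with all libraries.

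Between XX and XY mESC 3 of the 8 genes were called, all lower in XX, against 17.7% of all genes called higher, 13.6% lower and 31.3% in either direction, and 3 of the 8 did not overlap, against 37.3% of all genes. Gdf3 was at 17.6 ± 3.76 scaled TPM in XX and 30.9 ± 2.501 in XY mESC (SD, n = 3 each), a log2 difference of -0.79 ± 0.16 (adjusted p = 0.00151). Skil was at 4.29 ± 1.40 and 7.11 ± 0.387 (-0.65 ± 0.19, adjusted p = 0.0169), and without XX mESC library 2 the difference was -0.41 and not called (adjusted p = 0.0703). It was also not called without XY mESC library 1 (-0.64, adjusted p = 0.0508) or library 3 (-0.63, adjusted p = 0.0530), or on deposited TPM (-0.88, adjusted p = 0.0502). Nodal was at 13.6 ± 6.32 and 22.6 ± 3.69, with overlapping ranges and a difference of -0.76 ± 0.27 (adjusted p = 0.0440). That call was lost on deposited TPM (adjusted p = 0.167) and when XX library 1 or 3 or XY library 1 or 3 was left out (adjusted p from 0.116 to 0.186), while without XX library 2 the difference was -1.09 (adjusted p = 0.00257).

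Between XX and XY EpiLC 1 of the 8 genes was called higher in XX and 2 lower, against 17.2% of all genes called higher, 16.6% lower and 33.8% in either direction, and 6 of the 8 did not overlap, against 65.0%. Lefty2 was higher in XX, at 12.1 ± 0.691 against 2.05 ± 0.335 scaled TPM (SD, n = 3 each), a log2 difference of 2.11 ± 0.68 (adjusted p = 0.0241). Acvr2b was lower in XX, at 8.11 ± 0.762 against 12.6 ± 0.510 (-0.58 ± 0.15, adjusted p = 0.00705), and so was Skil, at 20.8 ± 0.668 against 31.1 ± 1.62 (-0.56 ± 0.19, adjusted p = 0.0346). Omitting any library but XY library 2 lost the Lefty2 call (adjusted p from 0.0553 to 0.0660), and omitting any of the 6 lost that of Skil (adjusted p from 0.0537 to 0.0922), although neither gene's groups overlapped. The Lefty2 call was also lost on deposited TPM (1.56, adjusted p = 0.0752), with a pseudocount of 0.1 (2.52, adjusted p = 0.0758) and with no filter (2.11, adjusted p = 0.0608). Protein-coding rescaling lost that of Skil (-0.68, adjusted p = 0.0608). Tdgf1 was also clear between the groups, at 41.1 ± 1.33 in XX and 66.0 ± 3.91 in XY EpiLC. Its difference of -0.67 ± 0.63 was not called with the spread shared over all 6 groups (adjusted p = 0.447), and was called when XX and XY EpiLC alone entered the fit (adjusted p = 0.0002). The change from mESC to EpiLC differed between XX and XY cells for 1 of the 8 genes, Gdf3 as given above, with 10.9% of all genes called higher, 12.8% lower and 23.7% in either direction.

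The wider pathway list holds 43 further genes, of which 32 were tested. In XX cells 13 rose and 4 fell from mESC to EpiLC, in XY cells 19 rose and 3 fell, and in Tet3-/- cells 18 rose and 3 fell. The share called was 53.1%, 68.8% and 65.6% of the 32 in turn, beside 50.4%, 51.4% and 52.4% of all tested genes. The median log2 fold change of the 32 was 0.28, 0.51 and 0.54. By role, of the 9 intracellular inhibitors 6 rose in XX, 7 rose and 1 fell in XY, and 7 rose in Tet3-/- cells. Of the 5 signal transducing Smads and partners 1 rose and 1 fell in XX, 4 rose in XY, and 2 rose and 1 fell in Tet3-/- cells. Smad2, the main effector, was level, with group means of 12.5 to 15.3 scaled TPM and no call in any of the 3 transitions. Of the other ligands, Gdf1, Inhba, Inhbe, Mstn and Tgfb3 were not tested, with group means up to 0.915, and Gdf11, Inha, Tgfb1 and Tgfb2 had group means up to 3.86. Nodal and Gdf3 thus had the highest group means among the ligand genes listed. In Tet3-/- EpiLC the means of Gdf3 and Tgfb2 were close (4.07 and 3.86), and in library 3 Tgfb2 (7.30) exceeded Gdf3 (4.92).

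**Figure D4:**
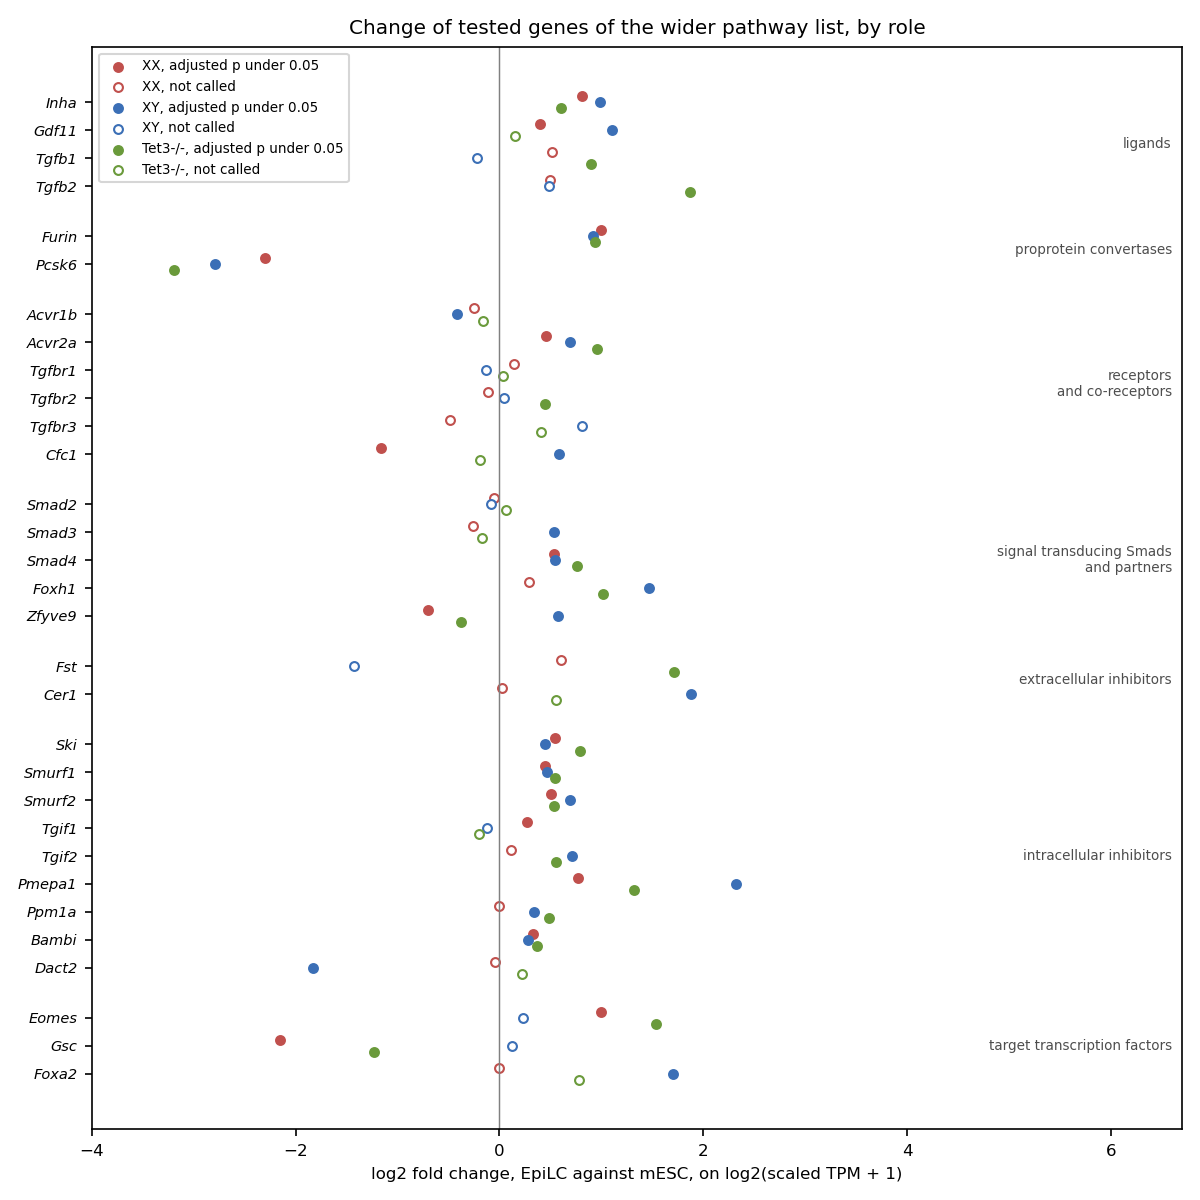
Log2 fold change of EpiLC against mESC, on log2(scaled TPM + 1), for tested genes of the wider list, grouped by role, in XX, XY and Tet3-/- cells, filled points being called at an adjusted p under 0.05. Furin lies above 0 (0.92 to 0.99) and Pcsk6 below it (-3.20 to -2.30) in each genotype.

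The convertases that cleave the Nodal precursor moved in opposite directions in XX cells. Pcsk6 (Pace4) went from 25.6 ± 1.57 to 4.40 ± 0.671 (-2.30, adjusted p = 1.9e-09) and Furin from 2.22 to 5.40 (0.99, adjusted p = 4.85e-05). Pcsk6 also fell in XY (-2.80, adjusted p = 1.4e-10) and Tet3-/- cells (-3.20, adjusted p = 1.1e-11). In XX cells Ski, a co-repressor related to Skil, rose by 0.55 (adjusted p = 0.00465, and 0.106 on deposited TPM) and Smad4, the common partner of the signalling Smads, by 0.53 (adjusted p = 0.000162).

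In XY cells the other named changes were those of Pmepa1 (2.33, adjusted p = 3.0e-07), an inhibitor that binds Smad2 and Smad3, and Foxh1 (1.47, adjusted p = 7.0e-07), the Smad partner, which reached 33.5 ± 2.70 scaled TPM in XY EpiLC. Tgif2, a co-repressor, rose by 0.71 (adjusted p = 1.0e-05), and Dact2, which lowers the receptors, fell by 1.83 (adjusted p = 1.7e-06). In Tet3-/- cells Fst, whose product follistatin traps Activin, rose by 1.72 (adjusted p = 0.0201), Eomes by 1.54 (adjusted p = 0.000735) and Pmepa1 by 1.32 (adjusted p = 6.6e-05). EpiLC library 3 carried most of the Fst change, with Fst at 35.2 against 1.47 and 2.65 scaled TPM in libraries 1 and 4, and on deposited TPM the Fst change was not called (1.65, adjusted p = 0.0580). Without that library the log2 changes were 0.52 for Fst (adjusted p = 0.0157), 0.92 for Eomes (adjusted p = 0.000264) and 0.98 for Pmepa1 (adjusted p = 0.000125), so each call was kept.

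Between Tet3-/- and XX mESC 2 of the 32 genes were called (6.25%, beside 3.18% of all genes). Smurf1, a ubiquitin ligase that acts with Smad7, was higher in Tet3-/- cells (0.54, adjusted p = 0.00982), at 8.67 ± 0.803 (n = 4) against 5.72 ± 1.19 scaled TPM (SD, n = 3). Cfc1, a relative of Tdgf1 named outside the level rule, was lower at 0.546 against 1.90 (-0.85, adjusted p = 0.0423), with overlapping groups. The Cfc1 call was lost without XX library 1 (-0.62, adjusted p = 0.253) or 3 (-0.78, adjusted p = 0.175) and without Tet3-/- library 2, 3 or 4 (adjusted p from 0.0788 to 0.107). In EpiLC 4 were higher and 1 lower (15.6%, beside 5.45% of all genes). Smurf1 was again higher, at 13.1 ± 0.821 against 8.07 ± 0.203 (0.63, adjusted p = 0.00334), as was Ppm1a, a Smad phosphatase (0.37, adjusted p = 0.0210). Tgfb2 (1.47, adjusted p = 0.00261) and Pcsk6 (-0.80, adjusted p = 0.00372) were also called, and both are named after their values were seen. Without Tet3-/- EpiLC library 3 Tgfb2 was higher by 0.99 (adjusted p = 3.3e-05) and Ppm1a was not called (0.32, adjusted p = 0.0567). Ppm1a was also not called without any 1 of the 3 XX EpiLC libraries (adjusted p from 0.0581 to 0.112), with quantile normalization (0.28, adjusted p = 0.141) or with protein-coding rescaling (0.19, adjusted p = 0.628). With protein-coding rescaling the Smurf1 call was lost in mESC (0.59, adjusted p = 0.158) and in EpiLC (0.47, adjusted p = 0.208). With only the groups compared, Smurf1 was not called in mESC (0.54, adjusted p = 0.218). Nor, in that setting, were Tgfb2 (1.47, adjusted p = 0.122) and Pcsk6 (-0.80, adjusted p = 0.0943) in EpiLC. On deposited TPM none of the 7 calls in either state was kept. In the difference of the transitions limma called 0 of the 32, beside 0.661% of all genes. An unadjusted p under 0.05 was found for 10 of the 32 and for 1646 of all 14972 genes. Without XX mESC library 2, 7 of the 32 were called, where leaving out single libraries gave 43 to 356 calls among all genes.

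Between XX and XY mESC 7 of the 32 were higher and 5 lower in XX (37.5% called, beside 31.3% of all genes). Fst had the largest difference, at 1.08 ± 0.221 scaled TPM in XX and 29.9 ± 6.17 in XY mESC (SD, n = 3 each; -3.88, adjusted p = 0.000169). Dact2 (-1.23, adjusted p = 0.000279) and the type I receptor gene Tgfbr1 (-0.35, adjusted p = 0.0163) were also lower in XX, and Pcsk6 (1.04, adjusted p = 4.8e-05), Smad3 (0.59, adjusted p = 0.00290), Tgif2 (0.55, adjusted p = 0.000386) and Ppm1a (0.43, adjusted p = 0.00147) were higher. On deposited TPM these calls were lost for Tgfbr1 (-0.59, adjusted p = 0.225), Pcsk6 (0.77, adjusted p = 0.107), Smad3 (0.35, adjusted p = 0.463), Tgif2 (0.29, adjusted p = 0.461) and Ppm1a (0.15, adjusted p = 0.754). That of Tgfbr1 was also lost without XX library 1 or XY library 1 or 3 (adjusted p from 0.0699 to 0.0770). In EpiLC 2 were higher and 8 lower in XX (31.2% called, beside 33.8% of all genes). Fst (-1.85, adjusted p = 0.0299), Tgfbr3 (-1.38, adjusted p = 0.00550), Zfyve9 (-1.10, adjusted p = 2.1e-05) and Foxh1 (-0.86, adjusted p = 0.000409) were lower. Leaving out any of the 6 libraries lost the Fst call (adjusted p from 0.0629 to 0.0758). Pcsk6, named after its value was seen, was higher (1.53, adjusted p = 6.6e-07). The 2 transitions differed for 11 of the 32 genes (34.4%, beside 23.7% of all genes), 1 in the direction of XX and 10 towards XY, among them Pmepa1 (-1.56, adjusted p = 0.00215), Zfyve9 (-1.28, adjusted p = 0.000270), Foxh1 (-1.18, adjusted p = 0.000955) and Smad3 (-0.79, adjusted p = 0.00572), with Dact2 (1.78, adjusted p = 0.000364) the other way. The Smad3 call was lost on deposited TPM (-1.22, adjusted p = 0.0543).

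For each tested gene the genes most alike in level were ranked by Pearson r of log2(scaled TPM + 1) over the 19 libraries, which share their groups and scaling. They were Ccnyl1, Glis2 and Gm10182 for Nodal (each r 0.96), Gm14444, 2310043M15Rik and Gm14406 for Gdf3 (each r 0.98), Slit3 and Notch2 for Acvr2b (0.98 and 0.97), and Tdgf1-ps1, Gar1 and Bckdk for Tdgf1 (0.92 to 0.99). Lefty1 was most like Amot, Cd276 and Chst15 (each r 0.97), and Lefty2 most like Epha2 and Ssh1 (0.85 and 0.83). Smad7 followed Tfb1m, Aifm1 and Gcsh (0.86 to 0.89), and Skil followed B4galt2, Klhl7 and Colec12 (each r 0.99). Among the 9 genes themselves, Skil was close to Acvr2b (r 0.92) and Lefty1 (0.91), which both rise with the state, and Nodal was closer to Lefty1 (0.69) than to Gdf3 (-0.44).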

How the data were processed

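Total RNA was sequenced from 19 libraries of 6 groups. Per the submitters' processing notes, reads were handled with FastQC 0.11.7, Trimmomatic 0.35 and Salmon 1.1.0 on GRCm38, and the deposited values are TPM per transcript. The annotation release of the authors is not given in the sources used here. Read depth cannot be recovered from TPM, and no counting interval is given. The deposited TPM of 140948 transcripts was summed into 54119 genes of GENCODE M21, leaving out 1096 unmatched transcripts. Gene TPM was divided by median-of-ratios factors from 13800 genes, and log2(scaled TPM + 1) of the 14972 genes that reached a deposited TPM of 1 in 3 or more libraries was fitted with limma 3.58.1 (R 4.3.3). All 6 groups shared 1 fit, with 9 contrasts and Benjamini-Hochberg adjustment within each. The script was tested on simulated data. The genes and lists were chosen with earlier results of these data known. Of the wider list, called genes with a group mean of at least 5 scaled TPM could be named, up to 4 per direction. Alternatives were deposited TPM, other scalings, pseudocounts, filters and fits, a replicate block, and each library left out. Some genes and 1 sequence are not reported here.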

Additional observations from a re-analysis of the deposited data

Results flagged for a closer look

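In the group of 4 Tet3-/- mESC libraries, library 2 stood apart from the others for 3 genes by Dixon's criterion at the 95% level. It held 1.74 scaled TPM of Lefty1, 11.6 of Lefty2 and 14.9 of Smad7, in each case the highest of its group. Of the 9 genes, each examined in this group alone because the other groups hold 3 libraries, 3 were thus picked out. Chance picks out about 1 group in 20 where values are normally distributed. The criterion was applied to scaled TPM without logarithms, where a high value stands out more than on the log scale of the tests. The count of 3 is therefore not set against that rate. The 3 values come from the same library and are not independent. For Gdf3, the change from mESC to EpiLC differed between XX and XY cells by 0.98 on the log2 scale in a test of the difference itself (limma, adjusted p = 0.00571).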

How the results depend on the processing

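Of the fold changes of the 8 tested genes in the 9 contrasts, 47 were compared between settings. These were the ones called in any setting and others listed for reporting, so the set was chosen partly by its calls. In the main setting 25 were called. Of these, 15 kept their call in every alternative other than the added fold minimum, and none of the 25 changed direction. With a log2 fold change of at least 1 also required, 3 of the genes were called in the Tet3-/- transition, 0 in Tet3-/- against XX EpiLC, 0 in XX against XY mESC, 1 in XX against XY EpiLC and 0 in the difference of the XX and XY transitions, and of the wider list 4, 8, 8, 0, 1 and 6 in turn for the transition of XX, of XY and of Tet3-/- cells, for Tet3-/- against XX mESC and EpiLC, and for mESC of XX against XY.
On deposited TPM the genes called were 0 in Tet3-/- against XX EpiLC, 1 in XX against XY mESC and 0 in the difference of the XX and XY transitions, and those of the wider list 11 in the XX and 11 in the Tet3-/- transition, 0 and 0 in Tet3-/- against XX mESC and EpiLC, 4 in XX against XY mESC and 18 in EpiLC. Of all 14972 genes, deposited TPM called 4689 in the XX and 5258 in the Tet3-/- transition. It called 90 and 161 in Tet3-/- against XX mESC and EpiLC, and 2121 and 7074 in XX against XY mESC and EpiLC. In the difference of the XX and XY transitions it called 2397. Deposited TPM moved the median gene by 0.54 in the XY transition and -0.58 in XX against XY EpiLC. The share of calls that were higher went from 48.6% to 61.2% in the XX transition, 51.3% to 81.5% in the XY transition, 55.7% to 82.2% and 45.8% to 11.2% in Tet3-/- against XX mESC and EpiLC, 56.4% to 45.4% and 51.0% to 11.1% in XX against XY mESC and EpiLC, and 37.4% to 0% and 46.0% to 22.5% in the Tet3-/- and XX and the XX and XY differences.
Rescaling over protein-coding genes gave 1 gene in XX against XY mESC and 0 and 2 of the wider list in Tet3-/- against XX mESC and EpiLC. Quantile normalization gave 2 genes, and protein-coding transcripts alone 2, in the XX and XY difference, the latter also 2 of the wider list in the Tet3-/- and XX difference. A pseudocount of 0.1 gave 1 gene in XX against XY EpiLC and 1 of the wider list in Tet3-/- against XX mESC. No filter gave 0 genes in Tet3-/- against XX EpiLC, 1 in XX against XY EpiLC and 1 of the wider list in Tet3-/- against XX mESC. The filter at a TPM of 5 gave 11, 1 and 6 of the wider list in the XX transition, Tet3-/- against XX mESC and the XX and XY difference. With only the groups compared, 0, 1 and 3 genes were called in Tet3-/- against XX EpiLC, XX against XY mESC and the XX and XY difference, and 0, 1 and 20 of the wider list in Tet3-/- against XX mESC and EpiLC and XX against XY EpiLC.
The labels do not say whether a number marks 1 clone or culture in both states. Deviations of same-numbered libraries correlated unevenly (r 0.042, -0.052 and 0.061 in XX, 0.206, -0.029 and 0.274 in XY, 0.216, 0.223 and -0.094 in Tet3-/- cells), under 0.1 for at least 1 number in each genotype, so pairing was not established. Between XX and Tet3-/- mESC r was 0.468, 0.477 and -0.444 for numbers 1, 2 and 3. In contrasts within a state the block joins libraries of the same number across genotypes. Its values there rest on a pairing that was not established. With the replicate block, 0 genes were called in Tet3-/- against XX EpiLC, 2 in the XX and XY difference, and 1 of the wider list in Tet3-/- against XX mESC. With that block the log2 values of Lefty2 in the Tet3-/- transition (1.42, adjusted p = 0.0263 by limma) and Smad7 in the XX transition (-0.34, adjusted p = 0.0494) were called, and Tdgf1 and Skil differed by 0.22 and -0.027 between Tet3-/- and XX EpiLC, against their main direction.
Without both libraries that stand apart, chosen after seeing the data, 1, 2, 4 and 4 genes were called in Tet3-/- against XX mESC and EpiLC, the Tet3-/- and XX difference and the XX and XY difference, and 6, 8 and 17 of the wider list in Tet3-/- against XX mESC and those differences. The Acvr2b difference of Tet3-/- and XX EpiLC was then -0.074, and it was -0.070 with protein-coding rescaling and -0.0072 on deposited TPM. That of Skil was -0.034 on deposited TPM and -0.095 with protein-coding rescaling.
Leaving out each library in turn gave 0 to 1 and 0 to 2 genes in Tet3-/- against XX mESC and EpiLC, 1 to 3 and 1 to 2 in XX against XY mESC and EpiLC, and 1 to 3 in the XX and XY difference. For the wider list it gave 1 to 6 in Tet3-/- against XX mESC and 0 to 7 in the Tet3-/- and XX difference. Among all genes it gave 181 to 1587 and 354 to 957 in Tet3-/- against XX mESC and EpiLC. It gave 3384 to 6015 and 3681 to 4111 of all genes in XX against XY mESC and EpiLC. In the Tet3-/- and XX difference 43 to 356 of all genes were called, and in the XX and XY difference 2628 to 4598. The uncalled differences of Tet3-/- and XX EpiLC then ran from -0.075 to 0.25 for Acvr2b and from -0.58 to 0.37 for Tdgf1, and that of the Tet3-/- and XX transitions from -0.54 to 0.0078 for Nodal. For the other alternatives the number called among all genes is not given here, so their counts are not read as results about these genes. The depth behind these values is unknown.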
